A study of Mus musculus with 6 samples.

Results

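The BMP ligands, receptors and Id genes examined here are 10 mouse genes: the ligands Bmp4 and Bmp7, the receptors Bmpr1a and Bmpr2, the inhibitory SMAD Smad6, the homeobox target Msx1, and the inhibitors of differentiation Id1, Id2, Id3 and Id4. Every non-control probe set whose platform annotation gave exactly 1 gene symbol, and that symbol one of the 10, was taken, which gave 24 of 45037 probe sets for 10 of the 18193 genes named in this way. Expression was measured on Affymetrix arrays in the ventral forebrain of embryos at E13.5 (the letter marks the embryonic day), in 3 Olig2 knockout arrays (Olig2-/-, replicates 2, 4 and 5) and 3 wild-type arrays (Olig2+/+, replicates 1, 4 and 5). Olig2 is a basic helix-loop-helix transcription factor of ventral progenitors and the oligodendrocyte lineage. Each array carried RNA pooled from 3 brains. The series design text states more replicates per genotype than the 3 given here. No allele or agent besides Olig2 is named for either genotype, how the knockout allele was built and which litters were used is not stated, and the tissue is called ventral telencephalon in the sample labels.

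BMPs are secreted ligands of the TGF-beta superfamily. They bind complexes of type I receptors, such as Bmpr1a, and type II receptors, such as Bmpr2, and the activated type I receptor phosphorylates SMAD1, SMAD5 and SMAD9, which enter the nucleus with SMAD4. Id genes and Msx genes are classical targets of this signal. Id proteins carry a helix-loop-helix domain without a basic region, so that they bind E proteins and keep them from forming DNA-binding dimers with proneural factors. In the embryonic forebrain BMPs are made chiefly at the dorsal midline, which includes the cortical hem and the choroid plexus, and by the meninges.

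The arrays were checked before the members were compared. Olig2 read 7.48, 7.53 and 7.76 in knockout replicates 2, 4 and 5, against 8.20, 8.22 and 8.42 in wild-type replicates 1, 4 and 5 (log2 expression), so its probe set was lower in the knockout without being absent. Its position relative to the deletion is unknown here, so it checks the label only in part. Olig1, its neighbouring relative, read 8.47, 8.55 and 8.02 in the knockout, against 7.17, 6.48 and 6.30 in the wild type, higher on every knockout array (limma's adjusted p = 0.511). Dlx1 and Dlx2, transcription factors of the ventral telencephalon, were the brightest markers of the labelled tissue. Of its 10 markers on the array 9 passed the brightness filter. The exception was Nkx2-1, a factor of the medial ganglionic eminence, at 2.69 to 3.36 over the 6 arrays. Lhx6, a factor of interneurons from that eminence, read 8.22 to 9.10, and Lhx8, in the same list, 9.91 to 10.25. The low Nkx2-1 values thus do not show that its transcript or that tissue was absent. Knockout replicate 2 lay nearer to wild-type replicate 4 (root mean square difference 0.23, log2, over the probe sets that passed the filter) than to knockout replicates 4 and 5 (0.39 and 0.37).

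Across the 10 genes, Id2 was the member with the largest genotype difference, and it was higher in the knockout. No member passed the adjusted threshold of 0.05, and neither did any other probe set. Probe sets were tested when they lay above the median of their own array on at least 3 of the 6 arrays, without regard to genotype. Of the 24 member probe sets 14 passed that filter, each of them on all 6 arrays, and they represent 6 genes (Bmpr1a, Bmpr2 and Id1 to Id4). The other 10 lay below the array median on every array, and Bmp4, Bmp7, Msx1 and Smad6 had no probe set above it. Among the 14, limma's adjusted p ranged from 0.511 to 0.992. Over all 22565 probe sets tested, the share called at adjusted p 0.05 was 0%.

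Without adjustment, limma gave p below 0.05 for 3 of the 14 member probe sets, 2 of Id2 (higher in the knockout) and 1 of Id4 (lower), where the share over all tested probe sets was 9.40% (4.98% higher, 4.42% lower). The genotypes did not overlap for 4 of the 14, 2 higher and 2 lower in the knockout, against 16.2% of all tested probe sets (8.96% higher, 7.25% lower). Of the 14 differences 9 were above 0 and 5 below, with a median of 0.02 on the log2 scale, and the median over all tested probe sets was 0.0022. In bulk tissue, fewer cells of a type and less RNA per cell cannot be told apart, and this holds for every difference below. The labels describe each replicate as a separate pool, but do not name litters, so the p-values measure the spread between these 6 pooled arrays.

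**Figure D1:**
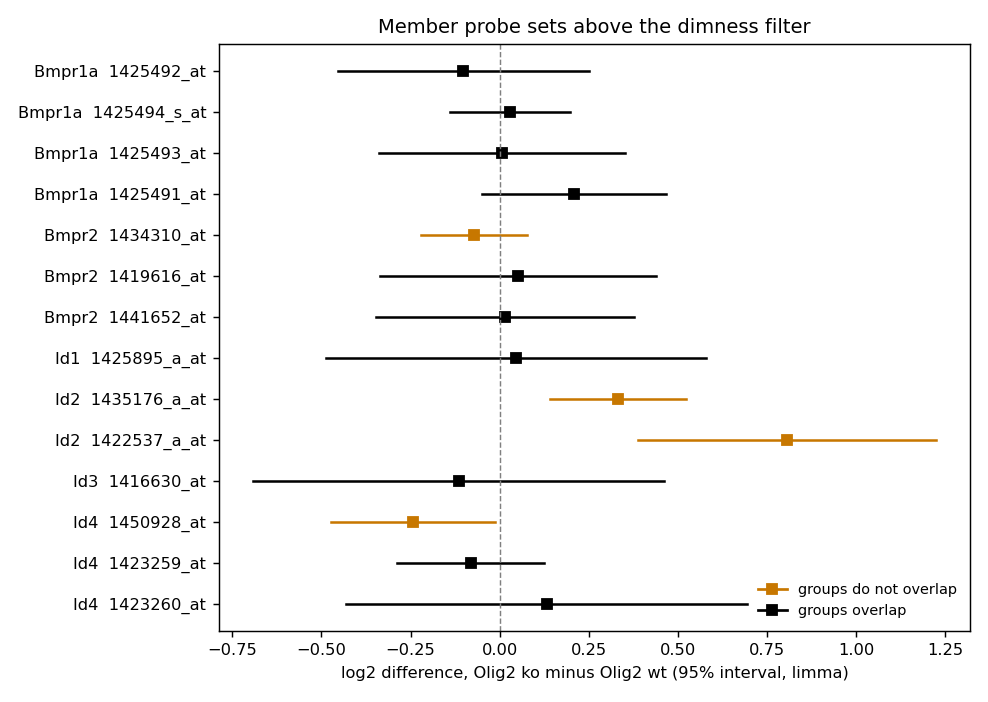
Log2 difference (Olig2 knockout minus wild type) with its 95% interval from limma, for the 14 member probe sets that passed the brightness filter; squares are the estimates and orange marks probe sets whose 3 knockout and 3 wild-type arrays do not overlap. Both Id2 probe sets lie right of 0, at 0.33 and 0.81, and the other 12 lie between -0.24 and 0.21.

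Bmp4 and Bmp7, the ligands, read near the lower limit of the measurement on every array. The lowest log2 value in the deposited table is 2.27, and 34.1% of all probe sets lay within 0.1 of their array's minimum on all 6 arrays. The single Bmp4 probe set read 2.34 on all 3 knockout arrays and on all 3 wild-type arrays, with a range of 0.0055 over all 6. Such values carry no order, and they say that Bmp4 transcript was not detectable with this probe set, not that it was absent.

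Bmp7 had 3 probe sets, and all were dim. Probe set 1418910_at read 2.31, 2.31 and 2.31 in knockout replicates 2, 4 and 5, against 2.42, 2.31 and 2.31 in wild-type replicates 1, 4 and 5. Probe set 1435479_at read 2.33, 2.28 and 2.28 in the knockout, against 2.28 on each wild-type array. The third, 1432410_a_at, read 2.29 on all 6 arrays. Thus a single array stood slightly above the rest at 2 of the probe sets, wild-type replicate 1 at one and knockout replicate 2 at the other, with differences too close to the floor to rank.

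Msx1, a homeobox gene induced by BMP at the dorsal midline, was at the floor as well. Its probe set 1417127_at read 2.27 on all 6 arrays. Probe set 1448601_s_at read 2.33, 2.29 and 2.29 in the knockout, against 2.29 on each wild-type array. Smad6, which limits BMP signalling by competing with the receptor-activated SMADs, read 2.28, 2.37 and 2.28 in the knockout, against 2.28 on each wild-type array. Over the 10 dim member probe sets the largest difference was 0.07, 8 lay within 0.1 of the array minimum on all 6 arrays, and 4 gave one and the same value on all 6. When all probe sets were tested without a brightness filter, 0 of these 10 reached an unadjusted limma p below 0.05.

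**Figure D2:**
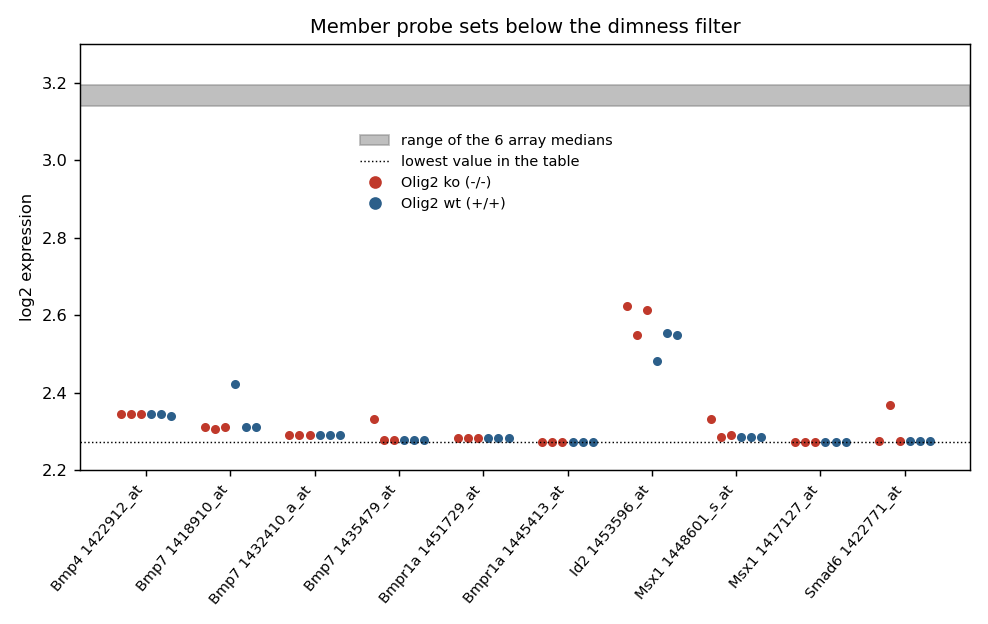
Log2 expression of the 10 member probe sets below the brightness filter, with 1 point per array (red, Olig2 knockout; blue, wild type; replicates in the order 2, 4, 5 and 1, 4, 5), the lowest value of the table (dotted line) and the range of the 6 array medians (grey band, 3.14 to 3.19). All points lie between 2.27 and 2.62, well under the band.

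Bmpr1a, a type I BMP receptor, showed no difference past the threshold at any of its 4 tested probe sets, and these did not share a direction. The brightest, 1425492_at, read 8.62, 8.67 and 8.73 in the knockout, against 8.69, 8.55 and 9.07 in the wild type. Wild-type replicate 5 was the highest array there, and the difference was -0.10 (SE 0.14, 95% interval -0.45 to 0.25, limma's adjusted p = 0.761). The largest difference was at 1425491_at, which read 6.09, 5.98 and 5.91 in the knockout, against 5.69, 5.97 and 5.70 in the wild type, a difference of 0.21 (SE 0.10, limma's unadjusted p = 0.0955, adjusted p = 0.513). Wild-type replicate 4 lay among the knockout arrays at that probe set, while the remaining tested probe sets differed by 0.03 and 0.0065. A further 2 Bmpr1a probe sets read 2.28 and 2.27 on all 6 arrays.

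Bmpr2, the type II BMP receptor, was nearly level across the arrays at its brightest probe set. Probe set 1434310_at read 10.34, 10.33 and 10.28 in the knockout, against 10.39, 10.39 and 10.38 in the wild type. The knockout arrays all lay below the wild-type arrays, but by little: the difference was -0.07 (SE 0.06, 95% interval -0.22 to 0.08, a 1.05-fold lower level, limma's adjusted p = 0.624). The dimmer probe sets 1419616_at and 1441652_at differed by 0.05 and 0.01, with overlapping genotypes. At 1419616_at the highest and the lowest array were both wild type, replicate 4 at 4.77 and replicate 5 at 4.24.

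Id2, which restrains neuronal and oligodendrocyte differentiation by binding E proteins, was higher in the knockout at both of its tested probe sets, with no overlap between the genotypes. Probe set 1435176_a_at, the brighter, read 9.83, 9.81 and 9.66 in knockout replicates 2, 4 and 5, against 9.39, 9.44 and 9.49 in wild-type replicates 1, 4 and 5. No wild-type array reached the lowest knockout array, which was replicate 5. The knockout arrays averaged 9.77 ± 0.09 and the wild-type arrays 9.44 ± 0.05 (SD, n = 3 each), a difference of 0.33 (SE 0.08, 95% interval 0.14 to 0.52), or a 1.26-fold higher level, with limma's adjusted p = 0.511 (unadjusted p = 0.00534).

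The second probe set of Id2 gave a larger difference in the same direction. Probe set 1422537_a_at read 6.59, 6.62 and 6.34 in the knockout, against 5.48, 6.04 and 5.60 in the wild type. Knockout replicate 5 was the lowest knockout array at both probe sets, and wild-type replicate 1 the lowest wild-type array at both. The knockout arrays averaged 6.52 ± 0.16 and the wild-type arrays 5.71 ± 0.29 (SD, n = 3 each), a difference of 0.81 (SE 0.17, 95% interval 0.39 to 1.23), or a 1.75-fold higher level, with limma's adjusted p = 0.511 (unadjusted p = 0.00338). The third probe set, 1453596_at, was dim and its genotypes overlapped, at 2.62, 2.55 and 2.61 in the knockout against 2.48, 2.55 and 2.55 in the wild type.

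Among the 22565 tested probe sets, 16.3% differed by at least as much as the brighter Id2 probe set and 1.70% by at least as much as the second. Of the 5104 genes with at least 2 tested probe sets, 55 (1.08%), Id2 among them, had every one of those probe sets higher in the knockout without overlap. The mean of the 2 tested Id2 probe sets differed by 0.57 (SE 0.11, limma's adjusted p = 0.533 over genes). Without knockout replicate 2 and wild-type replicate 4, the arrays that lay close together across genotypes, the differences were 0.30 at the brighter probe set (limma's adjusted p = 0.341) and 0.94 at the second (adjusted p = 0.237).

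Measures of RNA and of other cells were set beside the Id2 values. The 3' minus 5' log2 value of the Gapdh controls, which reflects RNA integrity and labelling, was -0.59, -0.59 and -0.65 in knockout replicates 2, 4 and 5, against -0.41, -0.53 and -0.50 in wild-type replicates 1, 4 and 5. That measure also separated the genotypes, and its part in the Id2 difference was not tested. The same measure for the Actb controls was 0.69, 0.90 and 0.88 in the knockout, against 0.80, 0.70 and 0.82 in the wild type, with overlap. The controls for 18S ribosomal RNA averaged 7.57, 6.34 and 5.53 in the knockout, against 4.87, 6.39 and 5.38 in the wild type, with overlap. The mean level of 10 radial glia and progenitor genes, cells in which Id genes are expressed, was 9.54 to 9.61 in the knockout and 9.52 to 9.62 in the wild type. Of the 10, 5 differences were above 0 and 5 below. Vim and Fabp7 were the brightest of the 10, and Fabp7 differed by -0.05 with overlap. Vim (0.18) and Hes1 (0.40) were higher on every knockout array, while Notch1 (-0.43, limma's unadjusted p = 0.0452) and Nes (-0.18) differed the other way with overlap. Among the ventral telencephalon markers 3 of the 9 tested differences were above 0 and 6 below. Gsx2, a homeobox factor of the lateral ganglionic eminence, was higher on every knockout array (0.54, limma's unadjusted p = 0.00448, adjusted p = 0.511), and Lhx6, a factor of interneurons from the medial ganglionic eminence, was lower on every knockout array (-0.33, limma's unadjusted p = 0.121). The part of these in the Id2 difference was not tested.

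Id1, a direct SMAD target in many cell types, varied among arrays of the same genotype more than between genotypes. Its single probe set read 5.13, 5.19 and 4.48 in the knockout, against 4.67, 4.97 and 5.03 in the wild type. Knockout replicate 5 was the lowest of the 6 arrays and knockout replicate 4 the highest, so the wild-type arrays lay within the knockout range. The difference was 0.04 (SE 0.22, 95% interval -0.49 to 0.58, limma's adjusted p = 0.941).

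Id3, which is often co-expressed with Id1, was spread most widely in the wild type. Its single probe set read 6.35, 6.57 and 6.44 in the knockout, against 6.14, 6.51 and 7.05 in the wild type. Wild-type replicates 1 and 5 were the lowest and the highest of all arrays, and the knockout arrays lay between them. The difference was -0.12 (SE 0.23, 95% interval -0.69 to 0.46, limma's adjusted p = 0.841), and it was 0.13 without wild-type replicate 5.

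Id4, an Id gene of forebrain progenitors, was bright on all arrays, and its 3 probe sets did not share a direction. Probe set 1450928_at read 12.03, 11.91 and 12.17 in the knockout, against 12.37, 12.22 and 12.25 in the wild type. Every knockout array lay below every wild-type array there, with a difference of -0.24 (SE 0.09, 95% interval -0.47 to -0.01), a 1.18-fold lower level (limma's unadjusted p = 0.0422, adjusted p = 0.511). Probe set 1423259_at read 11.77, 11.97 and 11.94 in the knockout, against 11.95, 12.05 and 11.93 in the wild type, an overlapping difference of -0.08 (SE 0.08). Probe set 1423260_at read 9.15, 9.40 and 9.41 in the knockout, against 8.71, 9.56 and 9.29 in the wild type, a difference of 0.13 (SE 0.23) in which wild-type replicate 1 was the lowest array. The mean of the 3 probe sets differed by -0.06 (SE 0.10, limma's adjusted p = 0.789 over genes).

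**Figure D3:**
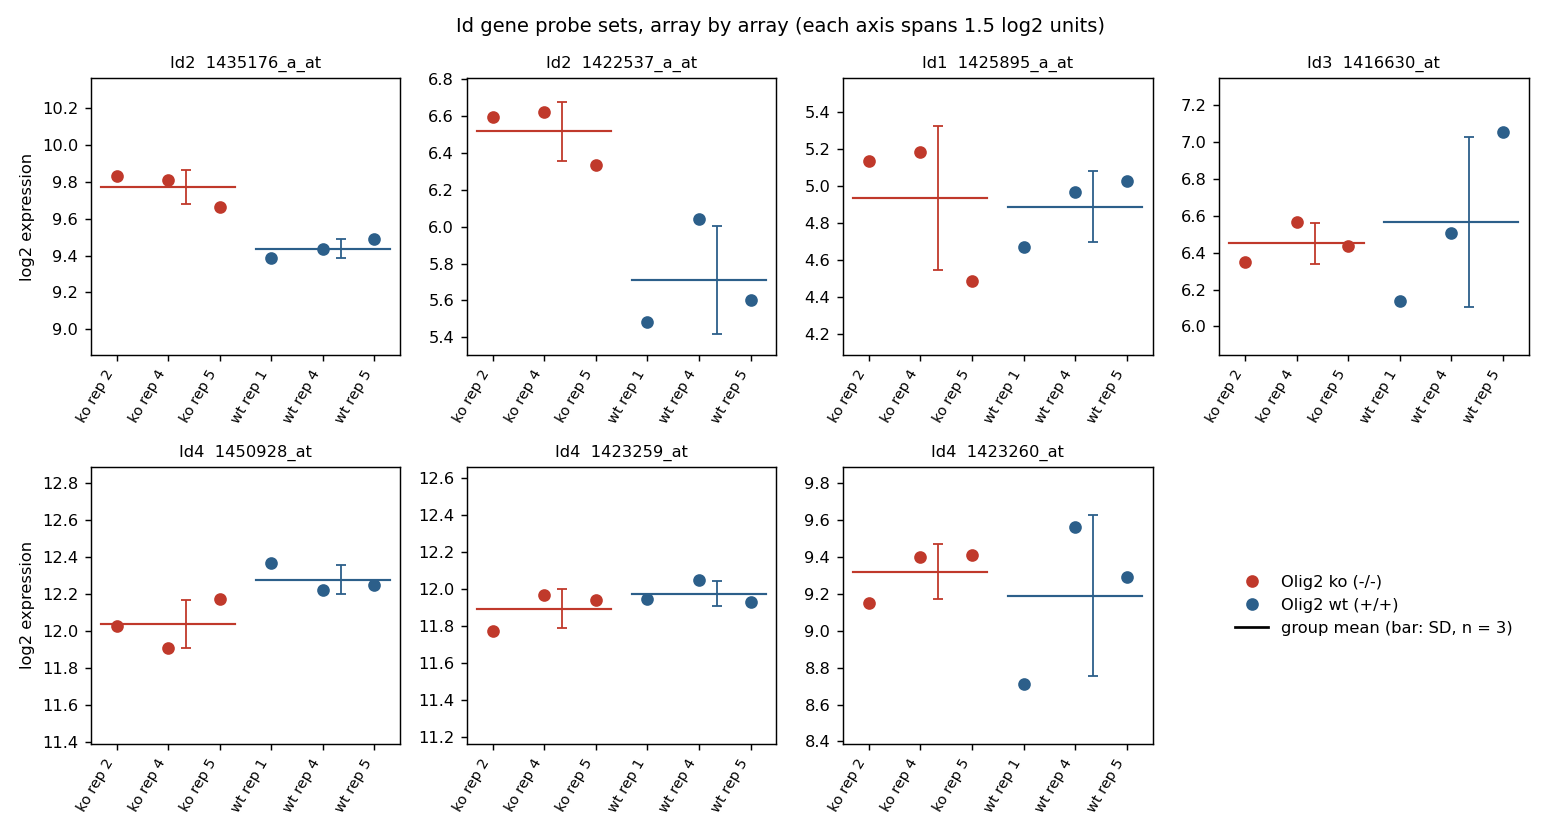
Log2 expression of the 7 tested Id probe sets on each array (red, Olig2 knockout replicates 2, 4 and 5; blue, wild-type replicates 1, 4 and 5), with group means as lines and SD as bars (n = 3 each); every vertical axis spans 1.5 log2 units. The 3 knockout arrays lie above the wild-type arrays at both Id2 probe sets and below them at Id4 1450928_at, while Id1, Id3 and the other Id4 probe sets overlap.

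The promoter windows of Id2 and Id4 are shown because these are the Id genes with a probe set whose genotypes did not overlap, in opposite directions. The windows run from 250 bases before to 50 bases after the annotated start, 5′ to 3′ on the minus strand for Id2 (chr12:25096043-25096342) and on the plus strand for Id4 (chr13:48260866-48261165), from RefSeq on GRCm38.p6. Capitals mark matches, on either strand, to the GC-rich SMAD motif GGCGCC and to the E-box CANNTG, which basic helix-loop-helix factors bind.
Id2: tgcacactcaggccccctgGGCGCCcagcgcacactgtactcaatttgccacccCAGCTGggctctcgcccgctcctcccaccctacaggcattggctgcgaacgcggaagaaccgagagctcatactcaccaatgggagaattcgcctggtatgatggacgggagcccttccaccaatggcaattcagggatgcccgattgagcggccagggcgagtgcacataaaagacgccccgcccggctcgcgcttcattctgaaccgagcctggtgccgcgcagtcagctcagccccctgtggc
Id4: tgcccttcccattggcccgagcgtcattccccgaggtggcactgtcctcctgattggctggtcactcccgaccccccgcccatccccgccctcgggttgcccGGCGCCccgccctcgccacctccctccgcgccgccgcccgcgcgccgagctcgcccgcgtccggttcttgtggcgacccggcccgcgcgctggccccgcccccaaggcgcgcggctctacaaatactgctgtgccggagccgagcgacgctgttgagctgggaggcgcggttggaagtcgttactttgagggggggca
The Id2 window holds GGCGCC at -231 and an E-box, CAGCTG, at -196, and the Id4 window holds GGCGCC at -148 and no E-box (first base of each match, counted from the start, with -1 the base before it). These 2 motifs do not overlap each other in either window. Of the 10 member genes 8 had a window in the table, and 4 of these (Bmpr1a, Bmpr2, Id2 and Id4) held GGCGCC, which 11.9% of all 32851 windows hold. GGCGCC is made of G and C alone, and these 8 windows held 59.3% (Bmpr2) to 79.3% (Bmpr1a) G and C. The share among windows of like composition was not computed, so the counts do not show an enrichment. An E-box stands in 72.3% of all windows and CAGCTG in 16.3%. A match is a description of the letters and not evidence of binding.

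Tissue of the dorsal midline, which makes BMPs, was followed with marker genes on each array. Of 12 markers of the dorsal midline and cortical hem, 11 were on the array and 5 passed the filter, while Lmx1a, Wnt2b, Wnt8b, Bmp6 and Msx2 were near the floor on all 6 arrays. The brightest, Otx2 and Rspo3, are also expressed outside the dorsal midline. The mean of the 5 was 5.91, 6.16 and 5.79 in knockout replicates 2, 4 and 5, against 5.77, 5.79 and 6.11 in wild-type replicates 1, 4 and 5, so the genotypes overlapped and knockout replicate 4 and wild-type replicate 5 were the highest. The summed signal of the 11 (log2) was 8.92 to 9.32 in the knockout and 8.87 to 9.22 in the wild type.

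Choroid plexus signal differed among arrays far more than any member did. Ttr, the transthyretin gene of choroid plexus epithelium, read 9.99, 6.42 and 4.85 in the knockout, against 8.36, 10.96 and 3.46 in the wild type. It was high on knockout replicate 2 and wild-type replicates 1 and 4, without following the genotype. Of the 10 choroid plexus markers on the array Ttr alone passed the filter, Aqp1, Kl, Kcnj13 and Slc4a5 were near the floor on all arrays, and the summed signal (log2) was 6.21 to 10.07 in the knockout and 5.90 to 11.00 in the wild type. The part of this tissue in the values of any member, Id2 included, was not tested.

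Mesenchymal and vascular cells also express Id1, Id3 and BMP ligands. Of 14 meningeal and mesenchymal markers 3 passed the filter, and those 3 did not share a pattern. Foxd1 read 6.15, 6.15 and 6.39 in the knockout, against 5.81, 5.64 and 6.52 in the wild type. Pdgfra, a receptor also carried by oligodendrocyte precursors, read 5.78, 4.05 and 4.36 in the knockout, against 6.24, 5.60 and 5.47 in the wild type, a difference of -1.04 (SE 0.49) in which knockout replicate 2 lay within the wild-type range. The collagen gene Col3a1 read 8.10, 4.04 and 4.09 in the knockout, against 6.20, 4.35 and 4.67 in the wild type, with knockout replicate 2 the highest array. Below the filter, Col1a1, Col1a2, Lum, Ogn and Aldh1a2 were also highest on knockout replicate 2, at 4.36, 6.04, 4.22, 3.82 and 2.49. Foxc1, Tbx18, Twist1 and Dcn were highest on wild-type replicate 1, at 3.47, 2.76, 2.64 and 3.04. Foxc2 and Slc6a13 were near the floor on all arrays. The summed signal of the 14 (log2) was 9.14, 7.34 and 7.50 in knockout replicates 2, 4 and 5. In wild-type replicates 1, 4 and 5 it was 8.14, 7.48 and 7.78, so knockout replicate 2 was the highest array. Of 15 endothelial and pericyte markers 13 passed, with a mean of 4.95 to 5.19 in the knockout and 4.93 to 5.21 in the wild type and a summed signal (log2) of 9.36 to 9.56 in the knockout and 9.10 to 9.68 in the wild type. Blood markers had a summed signal (log2) of 14.10 to 14.23 in the knockout and 14.02 to 14.25 in the wild type, and microglia markers 6.96 to 7.07 in the knockout and 6.66 to 7.02 in the wild type, so neither separated the genotypes. Bmp4, Bmp7 and Msx1 stayed within 0.12 of their own lowest value on all arrays, knockout replicate 2 included. They lie near the floor, where differences are compressed, so these values cannot show whether mesenchyme added to them. The part of mesenchymal and vascular cells in the values of any member was not tested.

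The genes whose pattern over the 6 arrays was most like that of Id1 or Id3 were sought among the 10630 genes with a tested probe set. Likeness was the mean absolute difference of log2 values after each gene's own mean was subtracted. For Id1, whose own mean absolute deviation was 0.22, the nearest were Rspo3, a secreted Wnt agonist (0.06), Pcid2 (0.08) and Pcgf5 (0.08). Rspo3 read 6.83, 6.97 and 6.31 in the knockout, against 6.51, 6.72 and 6.96 in the wild type. The search picked it for its likeness to Id1, so the lowest array they share, knockout replicate 5, is no separate observation. Rspo3 stands in the dorsal midline list but is also expressed elsewhere. Other tested genes of that list had another lowest array: Otx2 and Rspo2 wild-type replicate 4, Rspo1 knockout replicate 2 and Wnt5a knockout replicate 4. For Id3, with an own deviation of 0.20, the nearest were Cmc2 (0.07), Gldc, the glycine decarboxylase (0.08), and Trmt5 (0.08). For Bmp4 and Msx1, which were not tested, no likeness was computed.

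**Figure D4:**
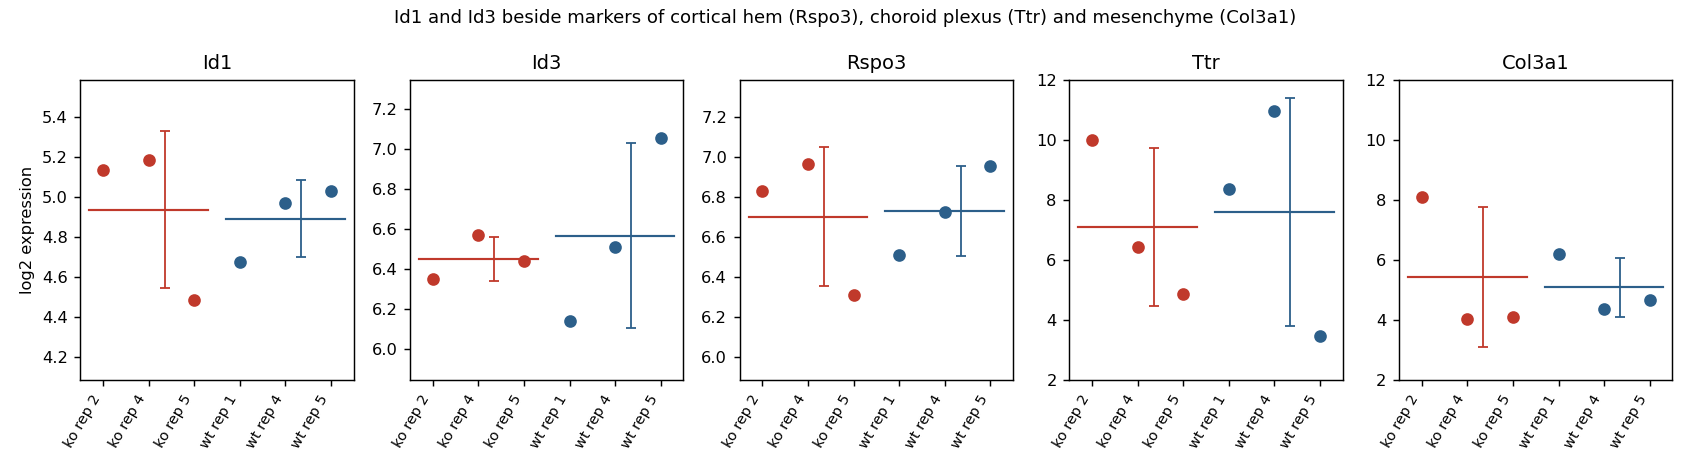
Log2 expression on each array of Id1, Id3, Rspo3 (cortical hem, and expressed elsewhere too), Ttr (choroid plexus) and Col3a1 (mesenchyme). Red marks Olig2 knockout and blue wild type, with group means as lines and SD as bars (n = 3 each). The first 3 axes span 1.5 log2 units and the last 2 run from 2 to 12. Rspo3 was picked as the gene nearest to Id1, and both are lowest on knockout replicate 5. Ttr runs between 3.46 and 10.96 without following the genotype.

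Of 61 other genes of the BMP pathway and its surroundings, 57 were on the array and 35 passed the filter. None of the 35 passed limma's adjusted threshold, as for all genes (0% of 10630). At an unadjusted limma p below 0.05 there were 3 higher and 0 lower in the knockout, against 7.90% of all genes (3.99% higher, 3.91% lower). Genotypes did not overlap for 4, all higher in the knockout, against 16.4% of all genes (8.45% higher, 7.96% lower). The 35 differences had 17 above 0 and 18 below, with a median of -0.0069, and the median over all genes was -0.0015.

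Most other ligands were also below the filter. Of 7 on the array only Gdf10, also called BMP3b, passed the filter, at 4.90, 4.91 and 4.40 in the knockout against 4.79, 4.51 and 4.42 in the wild type, a difference of 0.16 (SE 0.18). Of 10 other receptors and co-receptors 8 passed, 4 above 0 and 4 below, with no member past the adjusted or the unadjusted threshold at its brightest probe set. The type I receptor Acvr1 differed by 0.26 (SE 0.13, limma's unadjusted p = 0.0940). Its dimmer probe set 1416786_at read 4.96, 5.41 and 4.96 in the knockout against 4.62, 4.61 and 4.39 in the wild type. That was a difference of 0.57 without overlap (limma's unadjusted p = 0.00922, adjusted p = 0.511). The type II receptor Acvr2b differed by -0.35 (SE 0.18; -0.02 at a second probe set) and the vascular co-receptor Eng by -0.35 (SE 0.20), both with overlap.

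Among the extracellular modulators of BMPs, the genotypes overlapped for every tested gene at its brightest probe set. Of 14 on the array 7 passed the filter, 3 above 0 and 4 below, with a median difference of -0.16. The mean level of the 7 was 6.39, 6.21 and 6.16 in knockout replicates 2, 4 and 5. In wild-type replicates 1, 4 and 5 it was 6.45, 6.45 and 6.43, so every knockout array was lower. Crim1 had the largest difference of the 7, and its part in that mean was not tested. Bmper, which binds BMPs outside the cell, differed by 0.18 (SE 0.11) and Twsg1, a partner of chordin, by 0.17 (SE 0.11), with its other tested probe sets at 0.18 and 0.30. Crim1, a transmembrane protein that binds BMPs, read 6.91, 4.64 and 4.60 in the knockout, against 6.78, 6.89 and 5.77 in the wild type. The difference of -1.10 (SE 0.70) did not exceed the spread within the knockout, where replicate 2 lay with the wild type, and a second probe set differed by 0.05. The antagonists Nog and Chrd were below the filter.

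The SMADs and intracellular regulators held 3 of the 4 genes without overlap. Smad1, a transducer of the BMP signal, read 9.82, 9.92 and 10.12 in the knockout, against 9.52, 9.78 and 9.43 in the wild type, at its brightest probe set, a difference of 0.38 (SE 0.13, limma's unadjusted p = 0.0256). Its other probe sets differed by 0.11 and -0.39, with overlap, so they disagreed. Skil, which represses SMAD-dependent transcription, read 9.81, 10.05 and 9.83 in the knockout, against 9.55, 9.71 and 9.65 in the wild type, a difference of 0.26 (SE 0.10, limma's unadjusted p = 0.0361), and its second probe set was 0.47 higher, also without overlap. Tob1, which dampens BMP signalling in bone cells, was 0.17 higher (SE 0.08). Limma's adjusted p was 0.511 for all 3 genes, and 12 of 13 genes of the list passed the filter, 6 above 0 and 6 below.

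Among other target genes, 5 of 11 passed the filter, and Msx2, Msx3, Atoh8, Lmx1a and Lmx1b were near the floor on all arrays. Hes1, a transcriptional repressor that also answers to Notch, read 5.93, 6.27 and 5.89 in the knockout, against 5.63, 5.70 and 5.56 in the wild type. All knockout arrays were higher, with a difference of 0.40 (SE 0.12, limma's unadjusted p = 0.0156, adjusted p = 0.511). Hey2, a relative of Hes1, differed by -0.17 (SE 0.14) and Bambi, a decoy receptor, by 0.11 (SE 0.09). The E proteins that Id proteins bind did not differ past the threshold: Tcf12 by 0.16 (SE 0.10), Tcf3 by 0.07 (SE 0.07) and Tcf4 by -0.0069 (SE 0.15) at their brightest probe sets. The other tested probe sets ran from -0.21 to 0.19 for Tcf12, from -0.06 to 0.0092 for Tcf3 and from -0.13 to 0.31 for Tcf4.

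**Figure D5:**
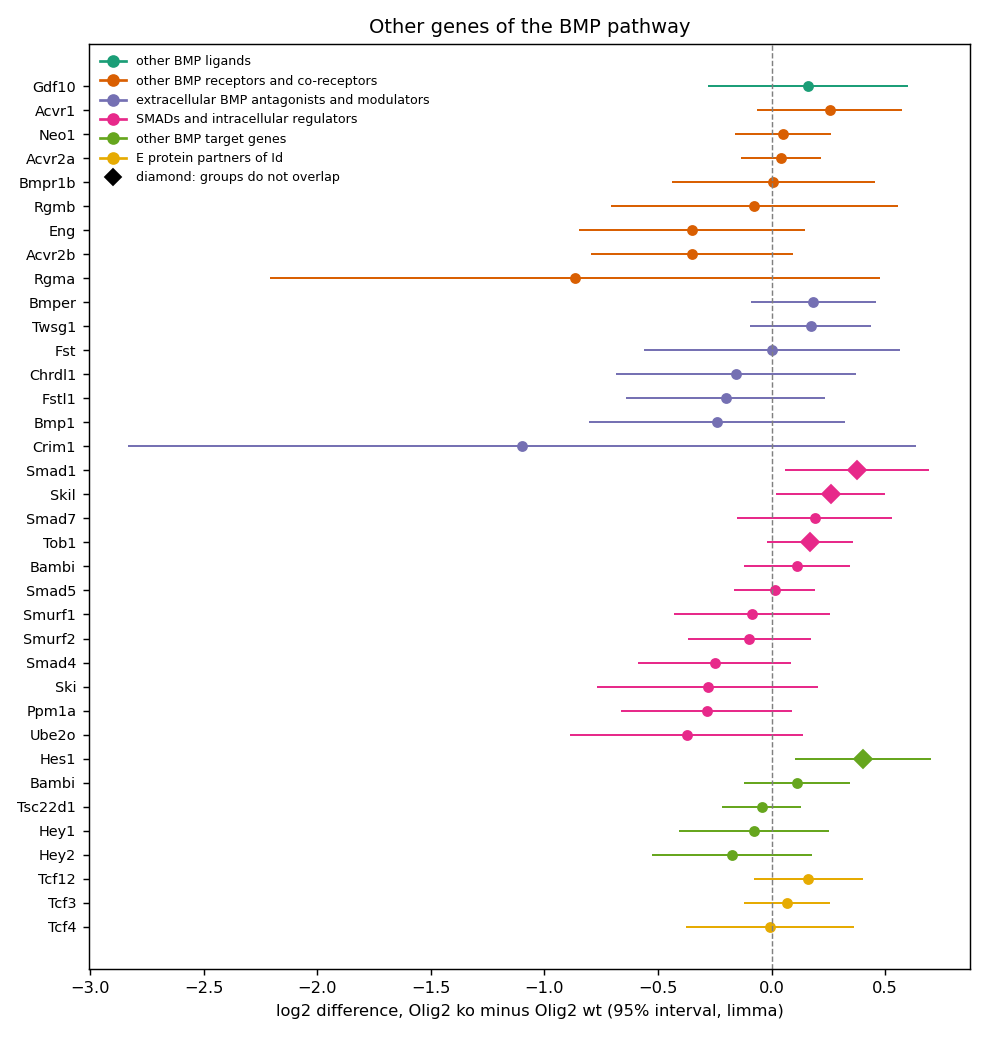
Log2 difference (Olig2 knockout minus wild type) with its 95% interval from limma for the genes of 6 lists of the BMP pathway at their brightest tested probe set; colours mark the lists (Bambi stands in 2 of them) and diamonds mark genes whose genotypes do not overlap. The diamonds are Smad1, Skil, Tob1 and Hes1, all right of 0, at 0.17 to 0.40.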

How the data were processed

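Affymetrix probe set values on the log2 scale were used as the authors deposited them, from MOE430 2.0 arrays hybridised with cRNA from 6 ug of total RNA per pool. Per the series design text, the authors used GCOS with MAS 5.0 on the images and then GCRMA for quantile normalization, summary per probe set and log2 values. No versions are given there or in the submitters' processing notes. GCRMA leaves a floor where differences are compressed, and quantile normalization hides changes in total RNA per cell. The number of arrays limits the precision.

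Probe sets were named from the platform annotation, and all 10 member symbols matched RefSeq by gene ID. Genotypes, taken from the sample titles, were compared by limma (version 3.58.1, R 4.3.3; lmFit then eBayes, two-sided tests without a block). P-values were Benjamini-Hochberg adjusted over 22565 probe sets, those brighter than the array median on 3 or more arrays. A gene was represented by its tested probe set of highest mean. The rule named all members, up to 3 genes of lowest p per pathway list, and Olig2 and Olig1 as checks. It also named the 2 brightest markers of a list, and the 3 nearest genes for Id1, Id3, Bmp4 and Msx1. It was not followed in full: the brightest endothelial, blood and microglial markers and the second of choroid plexus were left out. Other genes were named after their values were seen. Members and lists were chosen with earlier results of these data known. Alternatives were other filters, normalizations and variance models, array weights, a replicate block, gene means, and arrays left out. The test script was checked on simulated data.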

Additional observations from a re-analysis of the deposited data

How the results depend on the processing

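No probe set, member or pathway gene passed limma's adjusted threshold under any of the 16 alternatives, and over all probe sets 1121 to 3491 had an unadjusted p below 0.05. The replicate numbers are not stated to mark shared litters or days, and the deviations of same-numbered arrays correlated at -0.29 for number 4 and 0.32 for number 5. With the replicate block, 1 member probe set had an unadjusted limma p below 0.05, the second of Id2, against 3 without it. There Id2 differed by 0.27 at its brighter probe set (limma's unadjusted p = 0.0812) and by 0.66 at its second (unadjusted p = 0.00767). With gene means that count was 1 gene (Id2), with single arrays left out it was 2 to 4, and without both knockout replicate 2 and wild-type replicate 4 it was 4 (both of Id2, Bmpr1a 1425491_at and Bmpr2 1419616_at, but not Id4 1450928_at). Both tested Id2 probe sets stayed above 0 under every alternative fitted per probe set, at 0.27 to 0.39 and at 0.66 to 0.97. Their mean differed by 0.57. Id4 1450928_at and Bmpr2 1434310_at stayed below 0. The unadjusted limma p of Id4 1450928_at rose to 0.0534 with array medians set equal, 0.0658 with array weights and 0.183 with the replicate block. With single arrays left out it was below 0.05 only without knockout replicate 5 (limma's unadjusted p = 0.0211), and reached 0.118 without knockout replicate 4. The signs of small differences turned, and the cause was not tested. With array weights Bmpr1a differed by -7.1e-05 (1425494_s_at) and -0.043 (1425493_at), Bmpr2 1441652_at by -0.087 and Id1 by -0.12. With the replicate block Bmpr2 1419616_at differed by -0.014, Id1 by -0.16 and Id4 1423260_at by -0.022. Without both knockout replicate 2 and wild-type replicate 4 Bmpr1a 1425494_s_at differed by -0.032, Bmpr2 1441652_at by -0.076, Id1 by -0.015 and Id4 1423259_at by 0.017. The mean of the Bmpr1a probe sets differed by 0.036. With single arrays left out, Bmpr1a ran from -0.21 to 0.047 (1425492_at), from -0.0040 to 0.052 (1425494_s_at) and from -0.088 to 0.11 (1425493_at). Bmpr2 ran from -0.040 to 0.23 (1419616_at) and from -0.093 to 0.15 (1441652_at). Id1 ran from -0.081 to 0.27, Id3 from -0.33 to 0.13 and Id4 1423260_at from -0.11 to 0.32. Signal over background limits Bmp4, Bmp7, Msx1 and Smad6, for which no direction can be given.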
